A study of Mus musculus with 9 samples.

Results

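NF-kB is a family of dimeric transcription factors built from 5 subunits, and it switches on genes of inflammation and cell survival in liver cells and many other tissues. In resting cells inhibitor proteins hold the dimers in the cytoplasm, and a stimulus such as TNF or IL-1 leads to the destruction of the inhibitor and lets the dimers enter the nucleus. Several inhibitors are themselves encoded by NF-kB target genes, so that the pathway shuts itself off. Described here are 10 genes of this core, taken by their symbols, with earlier results of these data known when the list was drawn up. They are the subunit genes *Nfkb1*, *Nfkb2*, *Rela*, *Relb* and *Rel*, and the feedback regulators *Nfkbia*, *Nfkbie*, *Nfkbiz*, *Tnfaip3* and *Bcl3*. All 10 were listed in both deposited tables, among 13643 genes in either table and 13259 in both.

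RNA was sequenced from AML12 cells, a line of mouse hepatocytes, in 9 libraries. There were 3 libraries of control cells, 3 of cells with shRNA 1 and 3 of cells with shRNA 2, both hairpins being directed at *Srrm2*, which encodes a scaffold protein of nuclear speckles. The hairpin cells were taken on day 5 of lentiviral infection, and all cells grew in medium with serum, insulin-transferrin-selenium supplement and dexamethasone, a glucocorticoid. All groups come from 1 cell line, and the sources used here do not say whether the libraries of a group came from separate cultures. Each table gives for each gene 1 mean normalized count over the control libraries and the libraries of 1 hairpin together, called the pooled mean below. The deposited columns that compare a hairpin with the control were not used here, so no statement is made on whether a gene went up or down after *Srrm2* knockdown. No value per library was used either. The values therefore carry no replicate error and no test was run, and the differences below are descriptions.

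The pooled means summed to 6144608 over the 13424 genes in the table of shRNA 1 and to 6393456 over the 13478 genes in the table of shRNA 2. *Srrm2*, the targeted gene, had pooled means of 3428 and 3759, which hold the control libraries too and so cannot show the depth of the knockdown. The hepatocyte markers were listed for 9 of 9 genes, with *Alb* (albumin) at 2151 and 1814 and *Hnf4a* at 1498 and 1624. Of 4 endothelial markers none was listed in either table, and the leukocyte gene *Ptprc* had pooled means of 5.30 and 5.47. Some genes linked with other liver cells were well above that level. *Krt19*, a keratin of bile duct cells, had 2851 and 2753, and *Cd14*, a co-receptor of myeloid cells that hepatocytes also make, had 490.5 and 526.1. The bile duct markers *Krt7* (1351 and 1617) and *Sox9* (669.7 and 750.4) were high as well. *Epcam*, another bile duct marker, was listed in neither table.

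*Nfkb2*, *Rela* and *Nfkb1* were the abundant subunit RNAs of these cells, while *Rel* was the scarcest of the 10 genes. Levels are compared between genes as the pooled mean per kilobase of annotated exon, averaged over both tables after the table of shRNA 2 had been put on the scale of the other. *Nfkb2*, which encodes the p100 precursor of p52, had the highest level per kilobase, 411.0. *Rela*, which encodes the p65 subunit with a strong activation domain, followed at 339.4, and *Nfkb1*, which encodes the p105 precursor of p50, was at 252.0. The level per kilobase of *Nfkb2* was thus 1.21 times that of *Rela* and 1.63 times that of *Nfkb1*. Counts per gene do not tell a precursor from the shorter subunit cut from it, since both come from 1 RNA.

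*Relb*, the partner of p52 in the non-canonical pathway, was at 88.6 per kilobase, and *Rel*, which encodes the c-Rel protein best known from lymphocytes, at 33.3. *Rela* was 10.2 times as high as *Rel* per kilobase. The median level of the genes listed in both tables was 44.2 per kilobase, and *Rel* was the only member below this median. That depends on the set of genes. Among genes with a pooled mean of at least 10 in both the median was 56.8, above *Nfkbie* (47.4) too. At a pooled mean of at least 100 it was 90.1, above *Relb* and *Bcl3* (70.1) as well. Of all genes in both tables, 95.3% were lower than *Nfkb2*, 93.9% lower than *Rela* and 43.0% lower than *Rel*.

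Among the feedback regulators, *Tnfaip3* and *Nfkbia* had the higher RNA levels. *Tnfaip3* encodes A20, an enzyme that edits ubiquitin chains on signalling proteins upstream of NF-kB, and had 289.3 per kilobase. *Nfkbia*, which encodes the inhibitor IkB-alpha, had 265.9. *Nfkbie*, which encodes the related inhibitor IkB-epsilon, was at 47.4, so *Nfkbia* was 5.61 times as high. *Nfkbiz* (IkB-zeta) and *Bcl3* encode nuclear members of the IkB family that bind dimers on DNA and can raise as well as lower the activity of target genes, and they were at 102.6 and 70.1 per kilobase.

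**Figure D1:**
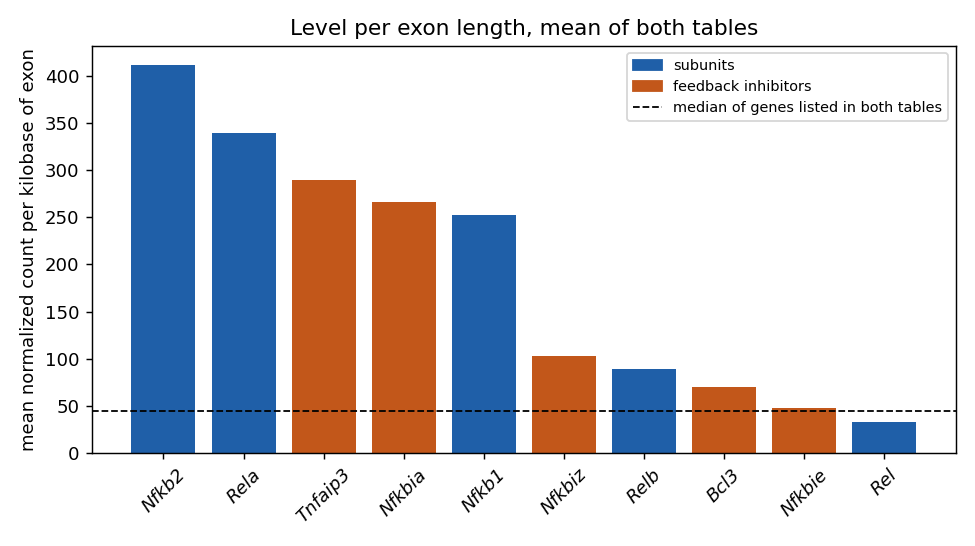
Bars give the level of each gene (mean normalized count per kilobase of exon, mean of both tables, linear axis from 0) for subunits (blue) and feedback regulators (orange). There are no error bars because no value per library was used. *Nfkb2* is highest at 411.0, and *Rel* at 33.3 is the only bar below the dashed line, the median of all genes listed in both tables (44.2).

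The order of neighbours in this plot was not stable. Dividing by the length of the transcript with the longest coding sequence instead of by all annotated exons put *Tnfaip3* first, at 472.7 per kilobase, because its annotated exons cover 7226 bases and that transcript 4422. It also raised *Relb* to 156.1, above *Nfkbiz* at 125.2. *Nfkbia* and *Nfkb1* changed places between tables. In the table of shRNA 1 alone *Nfkbia* had 226.9 per kilobase, below *Nfkb1*, and in that of shRNA 2 alone 320.7, above it. *Bcl3*, *Nfkbie* and *Rel* took the last 3 places in this order by every setting.

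The members are spread over 8 chromosomes. Positions are given for mm9 and the GENCODE M1 annotation. *Relb* (chromosome 7, 20191566 to 20214787, minus strand) and *Bcl3* (chromosome 7, 20393811 to 20408119, minus strand) are 179023 bases apart. *Rela* (5637483 to 5648130) and *Nfkb2* (46379227 to 46386580) are at distant places on the plus strand of chromosome 19. *Nfkb1* lies on chromosome 3 from 135247619 to 135354511, *Rel* on chromosome 11 from 23641514 to 23670970 and *Nfkbia*, the shortest by annotated exons with 1577 bases, on chromosome 12 from 56590398 to 56593634. *Tnfaip3* is on chromosome 10 from 18720716 to 18735463, *Nfkbiz* on chromosome 16 from 55811488 to 55839012 and *Nfkbie* on chromosome 17 from 45692665 to 45700118. An exon of *Nfkb2* overlaps *Psd*, and an exon of *Bcl3* overlaps *Gm16175*. The libraries were described as strand-specific, but whether the counting used strand is not given in the sources used here, so whether these pairs lost or shared reads was not tested.

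NF-kB dimers bind a short DNA element, the kB site, and most of the members with a promoter in the RefSeq table carry its consensus near the start of transcription. The consensus has 10 bases, namely GGG, a purine, any pair of bases, a pair of pyrimidines and CC. Both strands were searched in the 250 bases before and 50 after each start (RefSeq, GRCm38.p6). Of the 10 members, 7 had an entry, with 10 windows in all, and *Nfkb1*, *Relb* and *Nfkbiz* had none. The consensus was found for 6 of the 7 genes, *Nfkb2*, *Rel*, *Nfkbia*, *Nfkbie*, *Tnfaip3* and *Bcl3*, and not in the window of *Rela*. It was found in 8.46% of all 32851 windows, and 9.55% of all 27025 genes had it in some window. The members were listed for their known place in NF-kB signalling and feedback, so these shares are a description and not a test. Windows of the members were rich in G and C, with a median GC content of 65.2% against 52.7% for all windows. Of the 9690 windows with at least 60% GC, 13.3% held the consensus, and of the 7 such windows of the members 6 did. These 7 windows belong to *Nfkb2*, *Rel*, *Rela*, *Nfkbia* and *Bcl3*, and *Nfkb2* has more than 1 of them. Its windows 46305445 to 46305744 and 46305680 to 46305979 overlap and share the match at 46305705. The 6 windows with a match are thus not 6 separate promoters.

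One site of each gene is shown, because the elements that NF-kB reads are what makes feedback within the family possible. Each line gives a match in capitals with 10 bases on either side, read 5′ to 3′ on the strand of the gene. On the strand of the gene the matches of *Nfkbia* and *Tnfaip3* read as the reverse complement of the consensus, and those of *Rel* and *Bcl3* hold it on both strands.
*Nfkbia*, chr12:55492657-55492686, minus strand: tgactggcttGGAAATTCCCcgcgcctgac
*Tnfaip3*, chr10:19015403-19015432, minus strand: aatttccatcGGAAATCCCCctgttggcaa
*Nfkb2*, chr19:46305695-46305724, plus strand: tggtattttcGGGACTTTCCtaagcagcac
*Nfkbie*, chr17:45555584-45555613, plus strand: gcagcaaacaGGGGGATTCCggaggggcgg
*Rel*, chr11:23771042-23771071, minus strand: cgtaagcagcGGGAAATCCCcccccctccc
*Bcl3*, chr7:19822734-19822763, minus strand: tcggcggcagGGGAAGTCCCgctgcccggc
The match in *Nfkbia* begins 29 bases before the start, that in *Tnfaip3* 12 bases, that in *Nfkbie* 106 bases and that in *Rel* 92 bases before it. The match shown for *Nfkb2* begins 10 bases and that in *Bcl3* 2 bases after a start. Counting a position once whatever the strand, and also counting positions that overlap by all but 1 base, *Nfkb2* had 5 matches over its 3 windows, *Rel* and *Tnfaip3* had 2 each and the others 1. Such a match describes the sequence and does not show that NF-kB binds there in AML12 cells.

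The pooled means of 6 members leaned towards shRNA 2 by more than the limit set below, foremost those of *Nfkbia* and *Bcl3*. Both pooled means of a gene hold the control libraries, by the sample titles the same 3, so they differ by what the hairpin libraries add. The pooled mean of shRNA 2 was divided by that of shRNA 1, and then by 1.051, the median of this ratio over the 11451 genes with a pooled mean of at least 10 in both tables. A centred ratio above 1 then means that the average of the shRNA 2 libraries exceeded that of the shRNA 1 libraries. The factor between them is at least this ratio, since the shared control part pulls the ratio towards 1. Both statements hold only if the same controls entered both pooled means and the median gives their scale. With a fold of 1.1 as the limit, 6 of the 10 members were past it upward, and 0 downward. The limit is a size rule, and without replicate values it does not tell a hairpin difference from the spread between libraries. Of all 11451 genes, 17.8% were past this limit upward and 18.2% downward. The count rests on the limit, since with a fold of 1.2 only *Nfkbia* and *Bcl3* remained past it, beside 6.18% of all genes. The median centred ratio was 1.12 over the 10 members and, by construction, 1 over all genes. For *Srrm2*, the targeted gene, the centred ratio was 1.043 and the computed hairpin averages differed by 294.9 normalized counts. The control libraries in both pooled means pull this ratio towards 1. It therefore does not show whether the hairpins left equal amounts of *Srrm2* RNA, and without replicate values it gives no direction.

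*Nfkbia* differed most. Its pooled means were 357.8 in the table of shRNA 1 and 505.7 in that of shRNA 2, or 481.0 after rescaling. The centred ratio was 1.34, with no replicate error. Given shared controls and this scale, the average with shRNA 2 exceeded that with shRNA 1 by at least 1.34-fold. The averages of the hairpin groups then differed by 246.5 normalized counts. Among the 7757 genes with a pooled mean of at least 100 in both tables, 0.529% had a higher ratio. *Bcl3* came next, with pooled means of 155.0 and 203.6 and a centred ratio of 1.25, a difference of 77.3 normalized counts. Of the 7757 genes, 1.53% had a higher ratio than *Bcl3*. Both lie at the upper edge of the distribution over all genes.

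The subunits other than *Rel* were past the limit upward. *Relb* had pooled means of 321.0 and 387.8 and a centred ratio of 1.15. *Rela* had 863.5 and 1030 with a ratio of 1.13. *Nfkb2* had 1275 and 1503, a ratio of 1.12, and *Nfkb1* 1144 and 1338, a ratio of 1.11. These 4 subunits, a set cut off from below by the limit, spanned 1.11 to 1.15. All 5 subunits ran from 1.046 to 1.15, and the 5 feedback regulators from 0.957 to 1.34. In normalized counts the averages with shRNA 2 were higher than those with shRNA 1 by 308.5 for *Nfkb2*, 257.4 for *Nfkb1*, 232.8 for *Rela* and 95.6 for *Relb*. Of the 7757 genes, between 5.85% (*Relb*) and 10.7% (*Nfkb1*) had a higher ratio, so none of these 4 stood as far out as *Nfkbia*. *Nfkb1* at 1.11 was the member just past the limit, and *Tnfaip3* at 1.06 the one just short of it.

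The other 4 members were within the limit. *Tnfaip3* had pooled means of 2028 and 2263, the largest of all members, and a centred ratio of 1.06. *Rel* had 91.0 and 100.1, a ratio of 1.046. The averages of *Nfkbie* and *Nfkbiz* were slightly lower with shRNA 2. *Nfkbie* had pooled means of 116.5 and 118.9 with a ratio of 0.971, and *Nfkbiz* had 526.4 and 529.6 with a ratio of 0.957. Without replicate values, ratios this near to 1 give no direction. Of the feedback regulators, *Nfkbia* and *Bcl3* were thus past the limit and *Nfkbie*, *Nfkbiz* and *Tnfaip3* within it.

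**Figure D2:**
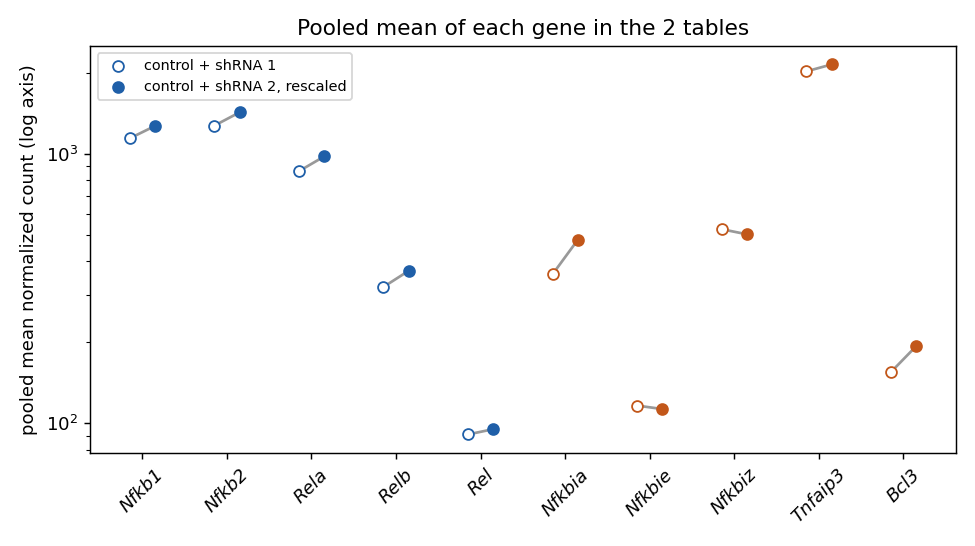
For each gene the open circle gives the pooled mean of control and shRNA 1 libraries and the filled circle that of control and shRNA 2 libraries after rescaling, in normalized counts on a log axis, with subunits in blue and feedback regulators in orange. The line climbs for 8 genes, most steeply for *Nfkbia* from 357.8 to 481.0, and drops slightly for *Nfkbie* and *Nfkbiz*.

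**Figure D3:**
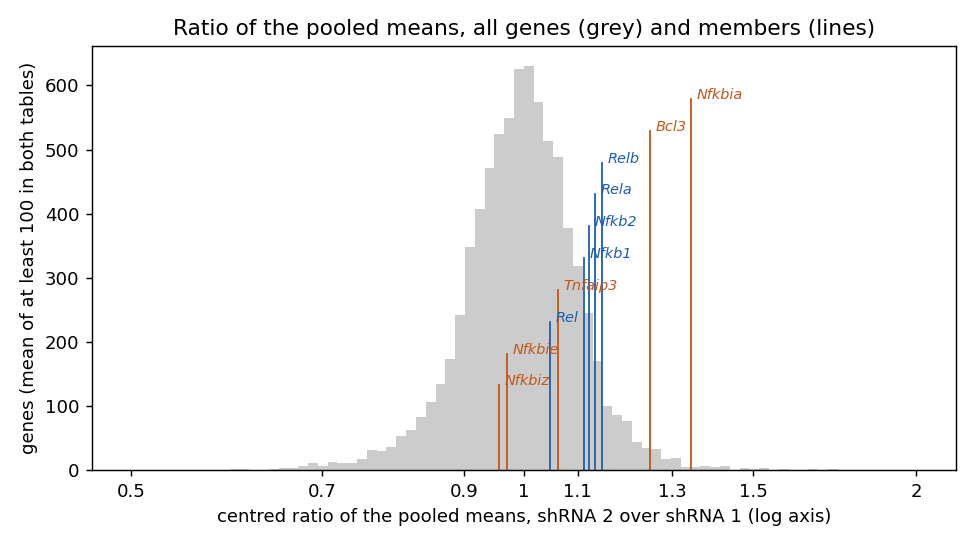
The grey histogram gives the centred ratio of the pooled means (shRNA 2 over shRNA 1, log axis) for the 7757 genes with a pooled mean of at least 100 in both tables, 4 of which lie outside the axis. Coloured lines mark the members, whose height has no meaning, with *Bcl3* at 1.25 and *Nfkbia* at 1.34 in the right tail and *Nfkbie* and *Nfkbiz* left of 1.

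The rest of the pathway was described by lists written from general knowledge. Upstream of the subunits, 19 of 21 receptors and adaptors had a pooled mean of at least 10 in both tables, and 1 was past the limit upward and 3 downward, with a median centred ratio of 0.976. Neither share exceeded that of all genes (17.8% upward and 18.2% downward), so these counts do not set the list apart. The 3 with the largest departures at a pooled mean of at least 100 were *Tlr3*, a receptor for double-stranded RNA, at 0.799, *Myd88*, the adaptor of Toll-like and IL-1 receptors, at 0.860, and the IL-1 receptor gene *Il1r1* at 0.866. All 3 were lower with shRNA 2, and the 1 adaptor past the limit upward was *Irak2*, a kinase of the IL-1 receptor complex, at 1.12. Of 19 kinases and ubiquitin ligases of the pathway, 2 were past the limit upward and 0 downward, with a median of 1.03. The share upward was again below the 17.8% of all genes. These were *Birc3*, an inhibitor of apoptosis that is also a known NF-kB target, at 1.26, and *Map3k7*, the kinase TAK1, at 1.102.

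Of 12 further inhibitors with values, 2 were past the limit upward and 1 downward, with a median of 0.994, which in both directions is no more than the share of all genes. At a pooled mean of at least 100 these were *Tnip1*, a partner of A20, at 1.22 and *Cyld*, a deubiquitinase, at 0.898. *Tnip3*, at pooled means of 18.4 and 33.3, had a ratio of 1.72. Among 16 target genes with values, 8 were past the limit upward and 3 downward, beside 17.8% and 18.2% of all genes. The count downward is thus near the share of all genes. The median was 1.09, and the ratios ran from 0.478 to 2.05. The chemokine gene *Ccl20* had pooled means of 313.7 and 675.7 and a centred ratio of 2.05, and *Tnfaip2* had 102.1 and 154.2 with 1.44. Also past the limit upward were *Vcam1* at 1.32, *Irf1* at 1.15 and *Ccl2* at 1.11. At pooled means below 100, *Nos2* at 1.56, *Ccl7* at 1.52 and *Cxcl2* at 1.18 were past it too. Of all genes with a mean of 10 to 100, 26.8% were past the limit upward. *Lcn2*, an iron-binding acute-phase protein, was lower with shRNA 2, with pooled means of 11805 and 5930 and a ratio of 0.478. The other targets past the limit downward were the acute-phase gene *Saa3* at 0.787 and the chemokine gene *Cxcl1* at 0.849. *Tnf*, *Il1a*, *Il1b* and *Il6*, which encode cytokines that start or carry the response, were listed in neither table. A table can leave out a gene for too few reads, so this does not show that their RNA is absent.

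**Figure D4:**
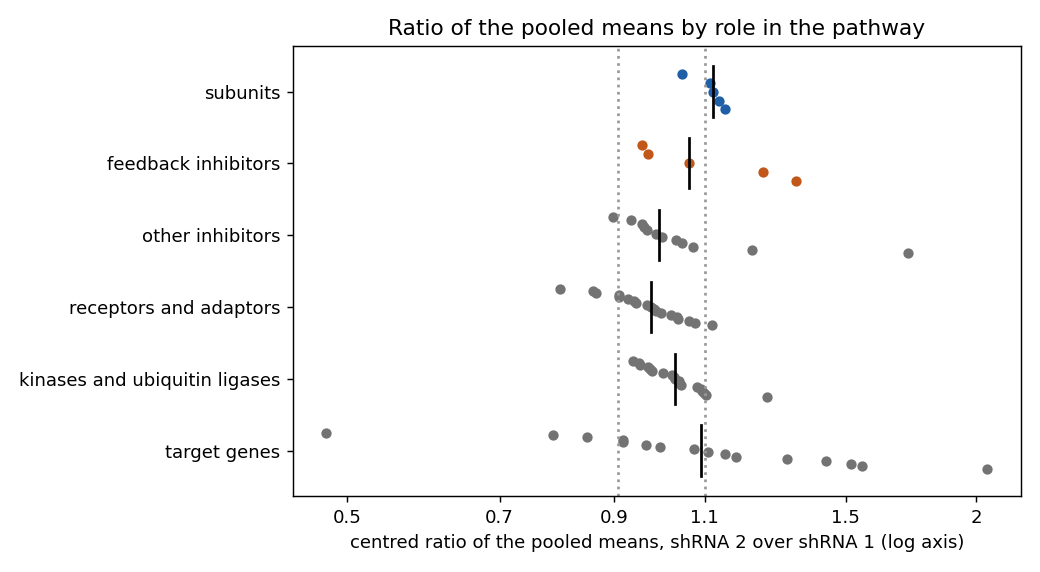
Each point is a gene with a pooled mean of at least 10 in both tables, placed by its centred ratio (shRNA 2 over shRNA 1, log axis) and by its role, black bars are medians and dotted lines mark the limit of 1.1 in either direction. The medians of subunits (1.12) and target genes (1.09) lie highest, while target genes run from 0.478 (*Lcn2*) to 2.05 (*Ccl20*).

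Other values differed between the hairpins as well. Of the 9 hepatocyte markers, *Krt8*, *Krt18* and *Alb* were past the limit downward, with centred ratios of 0.899, 0.865 and 0.802, and *Serpina1a* upward at 1.28. The other 5 lay between 0.939 (*Apoa1*) and 1.057 (*Apoe*), and the median of the list was 1.005. Of 3 bile duct markers with values, *Krt7* was past the limit upward at 1.14, with pooled means of 1351 and 1617, while *Sox9* had 1.066 and *Krt19* 0.918. Of 3 leukocyte markers with values, *Cd68* was past it upward at 1.13, with pooled means of 25.1 and 29.8, while *Csf1r* had 0.990 and *Cd14* 1.02. *Krt7* and *Cd68* thus had ratios within the range of the 4 subunits past the limit. The summed pooled mean of the leukocyte list was 547.0 with shRNA 1 and 559.9 with shRNA 2 after rescaling, nearly all of it *Cd14*. The part of these in the ratios of the members was not tested.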

How the data were processed

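Reads of 9 AML12 libraries had been trimmed and mapped to mm9 with TopHat2, and uniquely mapped pairs counted on GENCODE M1 genes with HTSeq, by the authors, who then ran DESeq2 1.8.2. The signal used per gene is the mean normalized count deposited by the authors, pooled over control libraries and those of 1 hairpin. The other deposited columns hold the authors' own comparisons (log2 fold change, its standard error, a statistic, p-value and adjusted p-value) and were not used here. Depth per library is unknown. All 13643 gene identifiers matched GENCODE M1 symbols.

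Groups follow the sample titles. The labels of 2 control libraries name tables of further hairpins, so that the same controls entered both tables rests on the titles. Ratios of pooled means were computed across all genes, centred on their median at a pooled mean of at least 10, with a fold of 1.1 as limit and no test. The calculation was tested on simulated data. The members and lists were chosen with earlier results of these data known. Beyond the members, *Srrm2* and markers, up to 3 genes of each list past the limit at a pooled mean of at least 100 are named. *Tnf*, *Il1a*, *Il1b*, *Il6*, *Psd*, *Gm16175*, *Irak2*, *Tnip3*, *Saa3* and *Cxcl1* are exceptions chosen after their values were seen. So are *Vcam1*, *Irf1*, *Ccl2*, *Nos2*, *Ccl7* and *Cxcl2*. Alternatives were other centrings, minimum means, folds and gene lengths, and a mismatch in the kB consensus. Python 3.11.15, numpy 2.4.6 and pandas 2.3.3 were used.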

Additional observations from a re-analysis of the deposited data

How the results depend on the processing

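The count of 6 members past the limit upward fell to 2, *Nfkbia* and *Bcl3*, with a fold of 1.2, where 6.18% of all genes were past it. It was 7 with the lowest fold tried (31.2% of all genes) and 8 with no centring (32.5%), and stayed at 6 with the other centrings and minimum means. No member was past the limit downward by any of these settings. Each centring divides the ratios of all genes by 1 constant, so all members moved by the same factor, less than 1.1-fold in each case. This does not test how stable the ratio of a single gene is. All 7 genes with a promoter entry had a kB match when 1 mismatch outside the GGG was allowed, as did 52.1% of all windows. No paired analysis was possible because the tables give no value per library, and for the same reason no replicate could be left out. The members were measured in the same libraries and are not independent of each other.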
